A study of Mus musculus with 60 samples.

Results

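Immortalised mouse ear fibroblasts were kept for 2 h at 40 °C, a fever temperature, or at 34 °C, close to that of skin, and their RNA was compared before any cytokine was added. The cells were unstimulated libraries chosen by their labelled temperature and treatment: 3 at 40 °C and 3 at 34 °C, of 60 libraries in all. Every culture had been grown overnight at 37 °C first, so both groups were moved from the same starting temperature. The labels name 1 cell line, with the tag GR NLS-iRFP-NLS, made from ear cells of adult mice called DKI that carry fluorescent RelA and c-Rel from their own loci. The cells became immortal through repeated passage, and all groups share these alleles. The 3 replicates of a group are described as independent and biological. As further groups, unstimulated cells at 24 and 37 °C (3 libraries each) and cells at 40 and 34 °C with a cytokine for 1 or 3 h (24 libraries) were used. The cytokine was TNF-α or IL-1β, each at 10 ng/mL. At the time of lysis, those cells had spent 3 or 5 h at their temperature.

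Heat makes some proteins lose their fold. Heat shock factors, led by HSF1, then bind heat shock elements in DNA and switch on chaperones of the cytosol and nucleus. Chaperones of the Hsp70 family work with J-domain proteins, which load clients onto them, and with nucleotide exchange factors, which release the clients again. Misfolding inside the endoplasmic reticulum (ER) is sensed by the separate unfolded protein response, through the sensors PERK, IRE1 and ATF6. Cooling, by contrast, is known to raise a pair of RNA-binding proteins, CIRBP and RBM3. Fibroblasts in the skin live at temperatures below that of the body core.

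Values are FPKM, fragments scaled for transcript length and for the depth of the library. Low FPKM values come in steps of 1 fragment, and these steps put the depth at an estimated 6.20 to 7.06 M fragments in the 6 libraries. Replicates had a Pearson r of 0.977 to 0.981 over all genes as log2 values. Fibroblast markers were abundant at both temperatures. The summed level of 5 fibroblast markers (Col1a1, Col1a2, Vim, Pdgfrb and Thy1) was 5219 to 5760 FPKM at 40 °C and 5240 to 5624 FPKM at 34 °C, and none of them was called. Dcn and Lum were not analysed here. Of the markers of other cells only some were measured. The macrophage markers Cd68 and Lyz2 summed to at most 5.41 FPKM in any of the 6 libraries. Krt10 (keratinocyte) reached 1.90 FPKM, Vwf (endothelium) 0.86 FPKM and Des (muscle) 2.05 FPKM. The other listed markers of these cells, such as Krt5, Krt14, Ptprc, Pecam1 and Myod1, were not analysed here. The fat marker Fabp4 reached 11.2 FPKM. Of the cartilage markers, Sox9, a transcription factor of cartilage, was called, at 10.8 ± 1.49 FPKM at 40 °C and 7.39 ± 1.09 FPKM at 34 °C (mean ± SD, n = 3 each). The measured cartilage markers Sox9, Comp and Col9a1 summed to 15.39 to 19.97 FPKM at 40 °C and 14 to 14.87 FPKM at 34 °C, and neither Comp (log2 -0.04) nor Col9a1 (-0.30) was called.

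At 40 °C the fibroblasts held more mRNA of heat shock chaperones, of ER chaperones and of a scatter of regulators such as Banp and Arc. They held less mRNA of the cold-inducible gene Cirbp, of the kinase gene Sgk1 and of the hexokinase gene Hk2. Genes of the integrated stress response went both ways, 5 of 28 higher, such as Gdf15, and 7 lower, such as Ppp1r15a and Trib3. Of 10122 genes tested, 982 (9.70%) were called, that is, differed at an adjusted p below 0.05 by limma on log2(FPKM + 1). Of these, 506 (5.00%) were higher and 476 (4.70%) lower at 40 °C, and 83 (0.820%) differed at least 2-fold. The counts of called members of gene lists given below are all to be read beside these shares. The median difference over all genes was -0.0098 on the log2 scale. Without each of the 6 libraries in turn, 657 to 827 genes were called, and 248 of the higher and 193 of the lower genes kept their call in all of these fits. With the spread taken from the 6 libraries alone, 290 genes were called, 162 higher and 128 lower. The SE and adjusted p given below use the spread shared by all 20 groups, unless stated otherwise. Levels are shares of each library, so a change in the total mRNA of a cell does not show. Each library pools many cells, so fewer cells with an mRNA and less of it per cell cannot be told apart. The FPKM of the tested genes summed to 698341 to 750034 at 40 °C and 657571 to 689953 at 34 °C, and the cause was not tested.

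**Figure D1:**
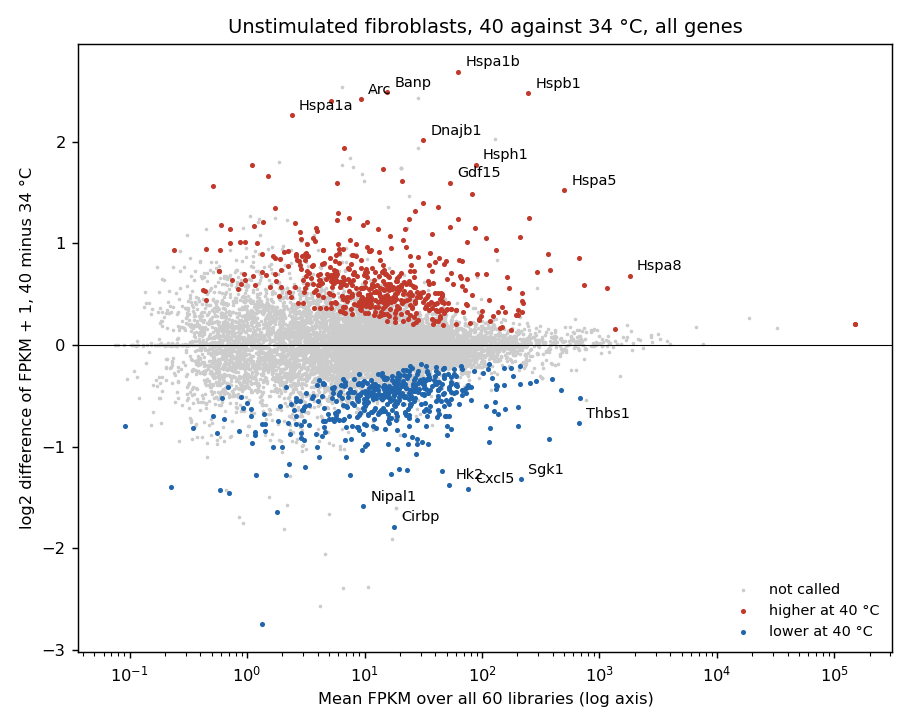
Each point is 1 gene, with its mean FPKM over all 60 libraries on a log axis and its log2 difference, 40 minus 34 °C, in unstimulated cells. Red points are the 506 genes called higher and blue points the 476 called lower at 40 °C. Hspa1b, Hspb1, Banp and Arc lie above 2 and Cirbp lies at -1.79.

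The inducible Hsp70 genes stood among the largest rises. Hspa1b, which encodes the classic heat-inducible Hsp70, had 194, 178 and 248 FPKM at 40 °C, against 29.1, 32.8 and 30.7 FPKM at 34 °C. All 3 warm libraries lay far above the cooler ones, with a log2 difference of 2.69 ± 0.12 (SE; limma adjusted p = 1.63e-21). Its near copy Hspa1a had 10.2, 7.39 and 12.6 FPKM at 40 °C and 1.04, 1.97 and 0.92 FPKM at 34 °C, a log2 difference of 2.26 ± 0.20 (adjusted p = 1.38e-11). The coding sequences of the pair are identical at 98.0% of positions. How reads were split between the 2 genes is therefore uncertain. Hsph1, an Hsp110 protein that acts as exchange factor and disaggregase for Hsp70, had 198, 174 and 248 FPKM at 40 °C, against 70.6, 53.2 and 54.8 FPKM at 34 °C (log2 1.77 ± 0.13, adjusted p = 8.28e-14). Hspa8, the constitutive Hsp70, was by far the most abundant member, at 2664, 2421 and 2734 FPKM at 40 °C and 1635, 1644 and 1591 FPKM at 34 °C. Its log2 difference was smaller, 0.68 ± 0.07 (adjusted p = 2.99e-10), yet in FPKM it gained more than any other chaperone named here. Of 7 measured members of the Hsp70 and Hsp110 list, 4 were higher and 0 lower, and the median log2 difference of the list was 0.68.

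Among J-domain co-chaperones, 5 of 13 measured members rose and 1 fell, with a list median of -0.01. Dnajb1, the main Hsp40 partner of heat-induced Hsp70, had 112, 92.7 and 67.0 FPKM at 40 °C, against 20.6, 21.2 and 21.8 FPKM at 34 °C. The groups did not overlap, as for 25.6% of all genes, and the log2 difference was 2.02 ± 0.12 (limma adjusted p = 1.01e-17). The limma adjusted p of Dnajb1 was 0.0141 with the spread of the 6 libraries alone. Dnaja4, a further Hsp40, had 18.6, 14.4 and 23.2 FPKM at 40 °C and 3.81, 4.46 and 3.93 FPKM at 34 °C (log2 1.94). Dnaja1 (1.40), Dnajb4 (1.32) and Dnajb2 (1.24) rose as well. The exception was Dnajb12, a J-domain protein anchored in the ER membrane, which fell by 0.34 (adjusted p = 0.00969). That call was lost without 40 °C replicate 3 (adjusted p = 0.161) and with the spread of the 6 libraries alone (0.154).

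Hsp90, which matures kinases and steroid receptors, rose together with its helpers: 8 of 11 measured genes were higher and 0 lower, with a median of 0.70. The inducible Hsp90aa1 had 366, 369 and 489 FPKM at 40 °C, against 155, 169 and 185 FPKM at 34 °C (log2 1.25 ± 0.12, limma adjusted p = 4.11e-11). The constitutive Hsp90ab1 averaged 1430 ± 57.9 FPKM at 40 °C and 972 ± 57.4 FPKM at 34 °C (SD, n = 3 each; log2 0.56). Co-chaperones moved by different amounts. Ahsa2, a relative of the Hsp90 ATPase activator Aha1, differed by 1.61, the Hsp90-binding Chordc1 by 1.35, the immunophilin Fkbp4 by 1.05, Cacybp by 0.71 and Ahsa1, Aha1 itself, by 0.70.

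Small heat shock proteins hold unfolded proteins in solution without ATP, and 3 of 5 measured ones were higher and 0 lower. Hspb1 (Hsp25 in mouse) had 623, 484 and 995 FPKM at 40 °C, against 126, 119 and 114 FPKM at 34 °C. The warm libraries were scattered but all stood above the cooler ones, with a log2 difference of 2.48 ± 0.19 (limma adjusted p = 8.28e-14). The limma adjusted p of Hspb1 was 0.0182 with the spread of the 6 libraries alone. Its pseudogene Hsp25-ps1 differed by 2.40, and how reads were split between the 2 is uncertain. Hspb8 (0.65) and Cryab (αB-crystallin, 0.49) rose less, and Cryab was not called with the spread of the 6 libraries alone (adjusted p = 0.119). Bag3, a nucleotide exchange factor that pairs Hsp70 with Hspb8 in selective autophagy, had 119, 101 and 127 FPKM at 40 °C and 48.4, 53.1 and 43.9 FPKM at 34 °C (log2 1.24 ± 0.10, adjusted p = 1.52e-12). Bag5, a further exchange factor, fell by 0.30 (adjusted p = 0.00631), a call lost without 34 °C replicate 2 or 40 °C replicate 1, up to 0.111.

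Mitochondria keep their own folding cage, made by Hspd1 (Hsp60) and its lid Hspe1 (Hsp10). Hspd1 had 212, 204 and 208 FPKM at 40 °C, against 128, 135 and 129 FPKM at 34 °C (log2 0.67 ± 0.08, limma adjusted p = 1.05e-07), and Hspe1 differed by 0.69. They were the 2 called members of 6 measured mitochondrial chaperones and proteases. The cytosolic chaperonin, which folds actin and tubulin, had 0 called subunits of 6, with differences of -0.02 to 0.21. Of the heat shock factors, Hsf1 was not analysed here. Hsf2 had 19.1, 18.8 and 18.1 FPKM at 40 °C and 13.3, 13.4 and 14.4 FPKM at 34 °C (log2 0.42, adjusted p = 0.0136). Its call was lost without 34 °C replicate 1 (adjusted p = 0.0552) or 34 °C replicate 2 (0.0505). Over all 55 measured genes of these 7 lists, 24 were higher and 2 lower, and their median log2 difference was 0.24, beside -0.0098 for all genes. The 40 °C libraries kept an order among themselves: of the 24 higher genes, replicate 3 was the highest warm library for 16 and replicate 2 the lowest for 17. The part of that order in the differences was not tested, but all of the 24 genes other than Hsf2 kept their call without each library in turn.

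**Figure D2:**
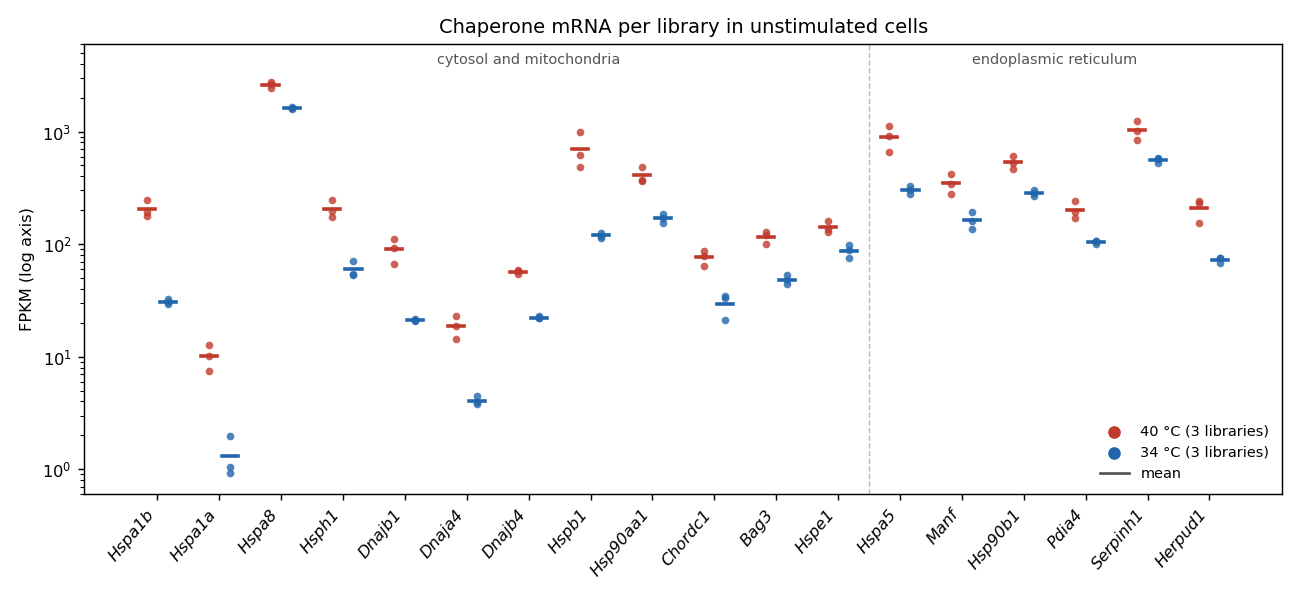
FPKM on a log axis for 18 chaperone and ER genes in unstimulated cells, 40 °C on the left (red) and 34 °C on the right (blue) of each gene. Points are the 3 libraries of a group and lines their mean. In each gene shown, all 40 °C libraries lie above all 34 °C libraries. The genes were drawn from those called higher, and 25.6% of all genes have libraries that do not overlap, in either direction.

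HSF1 binds repeats of the 5-base unit NGAAN in alternating direction. To show what such a site looks like in the genes that rose, the 250 bases before the RefSeq start site (build GRCm38.p6, the start farthest upstream of each gene) were searched. The letters were GAA, TTC and GAA with any 2 bases between neighbours or, on the other strand, TTC, GAA and TTC, with at most 1 mismatch among the 9 fixed bases. Of the 24 chaperone genes that rose, 20 had an entry in the promoter table and 8 (40.0%) held a match, against 2 of 25 (8.00%) of the chaperone genes that did not rise. A match was held by 6.09% of all 27025 genes with an entry and by 4.57% of the 7500 that were also measured. The 8 genes are Hspa1a, Hspa1b, Hsph1, Dnaja1, Fkbp4, Ptges3, Hspb1 and Hspe1. With 0 mismatches the letters were held by 1 of the 20 (5.00%, Hspe1) and by 1 of the 25 (4.00%, Dnajb6, which was not called), against 0.403% of all genes. A match is a run of letters and does not show binding, and no match says only that these letters are missing from this window. Stretches around the best match are printed 5′ to 3′ on the strand of the gene, with matching bases in capitals, for 6 genes that differ in the size of their rise. They lie at chr17:34959320-34959372 (minus strand, Hspa1b), chr5:135887782-135887834 (plus, Hspb1), chr5:149636337-149636384 (minus, Hsph1), chr4:40722319-40722371 (plus, Dnaja1), chr6:128438780-128438832 (minus, Fkbp4) and chr1:55088044-55088096 (plus, Hspe1).
Hspa1b: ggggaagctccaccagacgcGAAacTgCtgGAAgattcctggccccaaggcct
Hspb1: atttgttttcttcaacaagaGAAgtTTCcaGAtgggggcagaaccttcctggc
Hsph1: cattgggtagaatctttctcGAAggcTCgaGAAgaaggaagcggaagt
Dnaja1: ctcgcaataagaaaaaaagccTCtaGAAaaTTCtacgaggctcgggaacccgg
Fkbp4: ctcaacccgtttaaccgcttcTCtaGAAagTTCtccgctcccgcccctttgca
Hspe1: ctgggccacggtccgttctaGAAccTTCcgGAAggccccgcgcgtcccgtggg
The stretch of Hspa1a, at chr17:34972238-34972290 on the minus strand, has the same letters as that of Hspa1b. The first base of the match lies at -114 in Hspa1b, -117 in Hspb1, -28 in Hsph1, -129 in Dnaja1, -156 in Fkbp4 and -84 in Hspe1, counted from the start site. Hspe1, with 0 mismatches, rose by 0.69 on the log2 scale, less than Hspa1b (2.69) or Hspb1 (2.48), which have 1 mismatch each.

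In the ER, chaperones and folding enzymes rose as a group: 11 of 15 measured members were higher and 0 lower, with a median log2 difference of 0.80. Hspa5 (BiP), the Hsp70 of the ER, had 907, 658 and 1113 FPKM at 40 °C, against 329, 305 and 276 FPKM at 34 °C. The groups did not overlap, as for 25.6% of all genes, and the log2 difference was 1.52 ± 0.13 (limma adjusted p = 9.89e-13). The limma adjusted p of Hspa5 was 0.0272 with the spread of the 6 libraries alone. Manf, a secreted protein that binds BiP, had 345, 279 and 419 FPKM at 40 °C and 195, 162 and 138 FPKM at 34 °C (log2 1.07). Hsp90b1 (Grp94), the Hsp90 of the ER, had 522, 466 and 606 FPKM at 40 °C, against 300, 286 and 268 FPKM at 34 °C (log2 0.89). The disulfide isomerase Pdia4 differed by 0.94, the lectin chaperone Calr by 0.74 and the collagen chaperone Serpinh1 (Hsp47) by 0.86. Serpinh1 serves the main product of fibroblasts and reached 1008, 841 and 1242 FPKM at 40 °C, against 587, 568 and 529 FPKM at 34 °C. The prolyl hydroxylases P4ha1 and P4ha2, which modify procollagen in the ER, rose too, P4ha1 to 114, 103 and 133 FPKM at 40 °C, against 57.0, 57.8 and 55.3 FPKM at 34 °C (log2 1.02 ± 0.08, adjusted p = 6.36e-13), and P4ha2 by 0.80. Col1a1 itself averaged 1164 ± 129 FPKM at 40 °C and 1139 ± 35.9 FPKM at 34 °C and was not called (adjusted p = 0.944).

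Among 11 measured genes of ER-associated degradation, which returns misfolded proteins to the cytosol for destruction, 3 were higher and 0 lower. Herpud1, a membrane component of that machine, had 232, 154 and 242 FPKM at 40 °C, against 67.6, 75.4 and 75.4 FPKM at 34 °C (log2 1.48 ± 0.20, limma adjusted p = 5.83e-07). The adaptor Sel1l (0.73) and the mannosidase-like Edem1 (0.67) were the others, and Edem1 was not called with the spread of the 6 libraries alone (adjusted p = 0.0859). Among the sensors, Eif2ak3 (PERK) had 17.6, 15.1 and 19.8 FPKM at 40 °C and 9.20, 8.35 and 8.54 FPKM at 34 °C (log2 0.93 ± 0.11, adjusted p = 5.78e-08). The sensors Ern1 (IRE1) and Atf6 were called lower, by 0.47 (adjusted p = 0.0255) and 0.28 (0.0272). Each of those 2 calls was lost in 4 of the 6 fits that left out 1 library, up to an adjusted p of 0.14 and 0.192. Xbp1 and Atf4 were not analysed here. All 15 higher ER genes had 40 °C replicate 2 as their lowest warm library, and 14 had replicate 3 as their highest. All 15 also kept their call without each library in turn. Fewer did with the spread of the 6 libraries alone: 8 of the 11 chaperones and folding enzymes, 2 of the 3 degradation genes and Eif2ak3.

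The ER stress response element, which ATF6 and NF-Y read, is CCAAT and CCACG with any 9 bases between them (CGTGG and ATTGG on the other strand). It was searched in the same windows with at most 1 mismatch among its 10 fixed bases. Of 15 ER genes that rose, 12 had a promoter entry and 7 (58.3%) a match, against 0 of 18 that did not rise. The share was 1.31% among all 27025 genes and 1.91% among the 7500 measured genes with an entry. With 0 mismatches 4 genes remained, Hspa5, Hsp90b1, Calr and Canx, against 0.122% of all genes. Their stretches are shown because these 4 genes hold the element without a mismatch, at chr2:34772005-34772063 (plus strand, Hspa5), chr10:86705618-86705676 (minus, Hsp90b1), chr8:84847055-84847113 (minus, Calr) and chr11:50325780-50325838 (minus, Canx), with the element in capitals.
Hspa5: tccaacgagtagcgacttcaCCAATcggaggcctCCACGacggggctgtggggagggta
Hsp90b1: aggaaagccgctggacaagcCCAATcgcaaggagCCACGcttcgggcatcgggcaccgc
Calr: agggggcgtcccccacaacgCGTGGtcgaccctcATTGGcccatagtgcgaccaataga
Canx: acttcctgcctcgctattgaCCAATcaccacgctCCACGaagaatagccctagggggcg
The element begins at -65 in Hspa5, -212 in Hsp90b1, -162 in Calr and -145 in Canx. Their log2 differences were 1.52, 0.89, 0.74 and 0.32.

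The integrated stress response, in which PERK and related kinases act through ATF4, did not move one way: 5 of 28 measured genes were higher and 7 lower, with a median of -0.14. Gdf15, a secreted stress cytokine, had 67.1, 61.4 and 56.6 FPKM at 40 °C, against 21.3, 19.1 and 18.6 FPKM at 34 °C (log2 1.60 ± 0.15, limma adjusted p = 9.84e-11). Ppp1r15a (GADD34), which directs the phosphatase that ends the response, had 17.7, 13.9 and 9.34 FPKM at 40 °C and 34.5, 35.4 and 28.7 FPKM at 34 °C (fell by 1.24, adjusted p = 3.35e-06). The pseudokinase Trib3 had 15.3, 7.61 and 18.6 FPKM at 40 °C, against 35.0, 27.4 and 32.8 FPKM at 34 °C (fell by 1.22, adjusted p = 0.00102). Both falls missed the threshold with the spread of the 6 libraries alone (adjusted p = 0.0501 for Ppp1r15a and 0.109 for Trib3). Ddit3 (CHOP) averaged 25.7 ± 6.44 FPKM at 40 °C and 16.6 ± 1.73 FPKM at 34 °C (n = 3 each), its libraries overlapped, and its call (log2 0.57, adjusted p = 0.0434) was lost without any library but 40 °C replicate 3, up to 0.216. Atf3 (-0.42, adjusted p = 0.215) and Chac1 (-0.51, adjusted p = 0.124) were not called. Of 14 tRNA synthetases, many of which ATF4 controls, 0 were higher and 1 lower, beside 5.00% higher and 4.70% lower over all genes.

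Several of the largest rises belonged to no chaperone list. Banp, a nuclear DNA-binding protein, had 34.6, 37.3 and 32.7 FPKM at 40 °C, against 4.99, 6.18 and 5.02 FPKM at 34 °C. Its libraries were tight in both groups, and its log2 difference of 2.49 ± 0.19 (limma adjusted p = 8.28e-14) was second only to Hspa1b among the named genes. Arc, an immediate-early gene best known from neurons, had 24.9, 33.1 and 17.1 FPKM at 40 °C and 3.46, 5.33 and 2.71 FPKM at 34 °C (log2 2.42 ± 0.19, adjusted p = 4.41e-13). Znfx1, a helicase of antiviral RNA sensing, had 33.1, 27.8 and 30.9 FPKM at 40 °C, against 8.34, 7.76 and 9.40 FPKM at 34 °C (log2 1.73). Dedd2 (1.66), which carries a death effector domain, and Ccdc117 (1.59) were further ones, beside Gdf15 and the pseudogene Hsp25-ps1 given above. All kept their call without each library in turn and with the spread of the 6 libraries alone.

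The largest named fall was Cirbp, with 8.16, 10.9 and 5.98 FPKM at 40 °C, against 29.1, 27.8 and 35.3 FPKM at 34 °C (log2 -1.79 ± 0.23, limma adjusted p = 1.44e-07). The other cold-inducible gene, Rbm3, stood far higher and differed little, with 372, 389 and 326 FPKM at 40 °C and 446, 420 and 504 FPKM at 34 °C (log2 -0.33). Its adjusted p was 0.0493, and the call was lost without 34 °C replicate 1 (0.0889) or 3 (0.241) and without 40 °C replicate 1 (0.0804) or 3 (0.264). Hk2, the inducible hexokinase of glycolysis, had 14.4, 16.3 and 15.2 FPKM at 40 °C, against 40.8, 45.3 and 37.9 FPKM at 34 °C (log2 -1.38 ± 0.13, adjusted p = 3.52e-11). Sgk1, a kinase induced by serum and glucocorticoids, had 102, 96.1 and 116 FPKM at 40 °C and 272, 266 and 249 FPKM at 34 °C (log2 -1.32 ± 0.11, adjusted p = 3.26e-12). Both pairs of groups were wide apart. Hmga2, an architectural protein of chromatin, had 10.9, 13.1 and 13.6 FPKM at 40 °C, against 31.5, 30.4 and 29.9 FPKM at 34 °C (log2 -1.23). Nipal1, a magnesium transporter (-1.59), Endov, an endonuclease (-1.28), and Ctu2, an enzyme of tRNA thiolation (-1.27), fell at low to middle levels. Accs and Tgfbr3l (each -1.28) lay under 5 FPKM, where values rest on few fragments, and Tgfbr3l was not called with the spread of the 6 libraries alone (adjusted p = 0.11). The pseudogene Fth-ps2 is listed at 0 in all 3 libraries at 40 °C and at 1.08, 2.98 and 1.49 FPKM at 34 °C, and its call was lost in 5 of the 6 fits without 1 library, up to an adjusted p of 0.186.

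SR proteins, which select splice sites, split: 1 of 13 measured genes of that list was higher and 2 lower. Srsf5 had 78.1, 89.3 and 54.2 FPKM at 40 °C, against 135, 147 and 140 FPKM at 34 °C (log2 -0.95 ± 0.15, limma adjusted p = 1.44e-05). Srsf6 (-0.44) fell and Tra2a (0.41), a splicing regulator of the same kind, rose. These 3 calls were lost with the spread of the 6 libraries alone (adjusted p 0.053 to 0.0798). Of 22 measured matrix genes 0 were higher and 1 was lower, near the 4.70% lower over all genes. That gene was the protease Adamts1, at 58.3 ± 7.36 FPKM at 40 °C and 108 ± 13.0 FPKM at 34 °C (n = 3 each; log2 -0.88, adjusted p = 1.31e-06). Thbs1, a matrix glycoprotein and target of SRF and YAP, had 727, 637 and 807 FPKM at 40 °C and 1285, 1009 and 1429 FPKM at 34 °C (log2 -0.77, adjusted p = 0.00117, but 0.0596 with the spread of the 6 libraries alone). Among 15 measured genes of the oxidative stress and metal response 4 were lower and 0 higher, led by the metallothionein Mt2 (-1.07), the sulfiredoxin Srxn1 (-0.64) and the thioredoxin reductase Txnrd1 (-0.63). With the spread of the 6 libraries alone Srxn1 (adjusted p = 0.086) and Txnrd1 (0.0827) were not called.

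Immediate-early genes were mixed, with 5 of 21 higher and 2 lower and a median near 0. Beside Arc, the MAP kinase phosphatase Dusp6 had 13.9, 10.4 and 16.3 FPKM at 40 °C and 6.96, 3.17 and 6.51 FPKM at 34 °C (log2 1.19, limma adjusted p = 0.00154, but 0.101 with the spread of the 6 libraries alone). Zfp36 (tristetraprolin), which marks cytokine mRNAs for decay, had 11.7, 9.74 and 8.06 FPKM at 40 °C, against 4.82, 4.20 and 4.49 FPKM at 34 °C (log2 0.97). Egr1 had 11.8, 8.92 and 7.22 FPKM at 40 °C and 10.1, 10.8 and 9.57 FPKM at 34 °C and was not called (adjusted p = 0.864). In the p53 list 5 of 8 measured genes were higher and 0 lower. Of these, only Mdm2, the ligase that degrades p53, kept its call without each library in turn, at 53.8, 62.4 and 67.4 FPKM at 40 °C and 27.4, 38.2 and 37.5 FPKM at 34 °C (log2 0.82, adjusted p = 1.56e-06). The call of Mdm2 was lost with the spread of the 6 libraries alone (adjusted p = 0.0532). Zinc finger genes named Zfp had 25 of 243 higher and 5 lower, and 11 and 2 of them kept their call without each library in turn. These counts are to be read beside the 5.00% higher and 4.70% lower over all genes. Of all 506 higher and 476 lower genes, 248 and 193 kept their call in the same fits. The median of the Zfp genes was 0.14, beside -0.0098 for all genes.

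The counts of called NF-κB signalling genes before a cytokine was given are to be read beside the 9.70% called over all genes. Of 14 measured subunits, inhibitors and feedback genes, 1 was called, Nfkbia, which encodes the inhibitor IκBα. It had 43.2, 34.4 and 24.1 FPKM at 40 °C, against 26.6, 24.3 and 22.9 FPKM at 34 °C (log2 0.41, limma adjusted p = 0.0262). Its groups overlapped, and the call was lost without 34 °C replicate 2 (0.0764) or 3 (0.118) and without 40 °C replicate 1 (0.353) or 2 (0.0917). Rel, which encodes c-Rel, had 2.54, 2.58 and 2.77 FPKM at 40 °C and 2.40, 2.56 and 1.98 FPKM at 34 °C and was not called (log2 0.13, adjusted p = 0.458). Relb (adjusted p = 0.791), Nfkb1 (0.365) and Tnfaip3 (0.245) were not called either. In the receptor signalling list 4 of 21 were higher and 0 lower, and 0 of those 4 kept the call without each library in turn. Among 23 chemokines and cytokines 1 was higher and 2 lower. Cxcl5, a neutrophil chemokine, had 1.90, 1.99 and 1.43 FPKM at 40 °C and 6.54, 7.51 and 5.25 FPKM at 34 °C (log2 -1.42 ± 0.23, adjusted p = 1.41e-05), and Csf1, the macrophage growth factor, fell by 0.52. Cxcl1 (adjusted p = 0.664) and Ccl2 (0.449) were not called.

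**Figure D3:**
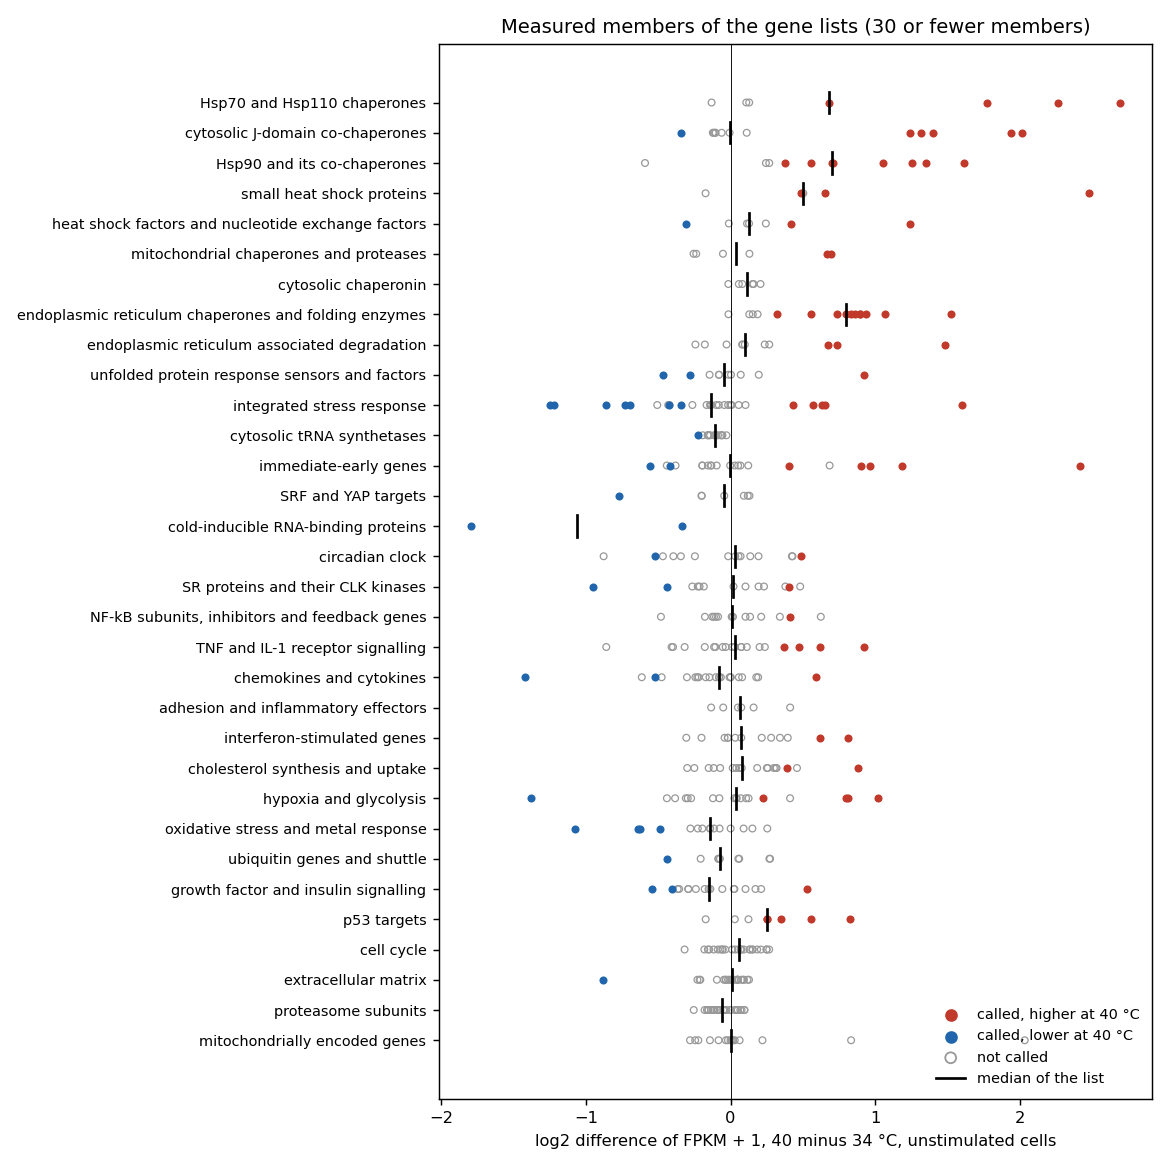
The log2 difference, 40 minus 34 °C, of each measured member of the gene lists with 30 or fewer members, 1 row per list. Red and blue points are members called higher and lower at 40 °C, open circles were not called, and black bars are list medians. The rows of Hsp70 (median 0.68), Hsp90 (0.70) and ER chaperones (0.80) reach far to the right, while cell cycle and proteasome members stay near 0.

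Beside the 9.70% called over all genes, several large groups held 0 calls or 1. Of 26 cell cycle genes, 28 proteasome subunits and 15 mitochondrially encoded genes, 0 were called, and of 66 cytosolic ribosomal proteins 1 was higher. Differences of the cell cycle genes ran from -0.32 to 0.27 those of proteasome subunits from -0.25 to 0.10 and those of the ribosomal proteins from -0.04 to 0.37. Those of the mitochondrially encoded genes ran from -0.28 to 2.03, and the highest, mt-Nd4l (2.03 ± 2.07, SE), was not called (adjusted p = 0.647). Cholesterol synthesis, near the share over all genes, had 2 of 19 genes higher, of which Mvd (0.88) kept its call without each library in turn.

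Cells at 37 °C, the temperature of the overnight culture, were set beside those at 34 and 40 °C. The 37 °C mean lay between the other 2 for 429 of the 506 higher and 412 of the 476 lower genes. These genes were called because 40 and 34 °C lay apart, so such a place for 37 °C is largely set by that choice. The median share of the log2 difference that fell in the step between 37 and 40 °C was 67.0% for higher and 68.9% for lower genes. These steps share libraries with the comparison of 40 with 34 °C and are values, with no test of their own. Whether 37 °C lay off the midpoint was tested, as the 37 °C mean minus the mean of the 40 and 34 °C means on the log2 scale. This called 56 genes (0.553%), 43 (0.425%) with 37 °C low and 13 (0.128%) with 37 °C high. Of the 56, 29 belong to the chaperone and ER lists, which hold 55 and 36 measured genes. The midpoint test shares libraries with the comparison of 40 with 34 °C, and 41 of the 56 were called higher at 40 °C there. The number of genes called by the midpoint test was 37 without 37 °C replicate 2. It was 1, Hspa1b, with the spread of the 9 libraries of these 3 groups alone, so the calls rest on the spread shared by all groups.

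Several shapes can be seen in the plot of 4 temperatures. The unstimulated 24 °C libraries held an estimated 3.70 to 5.06 M fragments, against 5.68 to 7.10 M in those at 34, 37 and 40 °C. Their FPKM summed to 840358 to 864578, against 657571 to 750034 in the others. The part of these differences in the 24 °C levels was not tested. Hspb1 and Hspa5 had nearly the same level at 34 and 37 °C and stood higher at 40 °C. Hspb1 averaged 96.6 FPKM at 24 °C, 120 FPKM at 34 °C, 115 FPKM at 37 °C and 701 FPKM at 40 °C, so that its step was -0.06 between 34 and 37 °C and 2.54 between 37 and 40 °C (midpoint test -1.30, limma adjusted p = 5.61e-07). Hspa5 had steps of -0.11 between 34 and 37 °C and 1.63 between 37 and 40 °C (midpoint test -0.87, adjusted p = 6.52e-07). Other genes moved in both steps. Cirbp averaged 13.4 FPKM at 24 °C, 30.7 FPKM at 34 °C, 19.2 FPKM at 37 °C and 8.35 FPKM at 40 °C, and was thus highest at 34 °C of the 4 temperatures. Hk2 had means of 29.7, 41.3, 27.7 and 15.3 FPKM at 24, 34, 37 and 40 °C. Banp had 15.6, 5.40, 12.3 and 34.9 FPKM and Arc 5.37, 3.83, 10.2 and 25.0 FPKM in the same order, both with their lowest mean at 34 °C, although the libraries of Arc at 24 and 34 °C overlapped. For these 4 genes the midpoint test gave adjusted p of 0.927 to 1.00. Only 0.553% of all genes passed that test. The genes of each shape were grouped with their means known, so these test results were largely set by the choice.

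In the remaining shape 37 °C stood apart from both 40 and 34 °C, which a comparison of 40 with 34 °C does not show. Egr1 averaged 10.2 ± 0.64 FPKM at 34 °C, had 63.8, 68.8 and 17.1 FPKM at 37 °C and averaged 9.32 ± 2.33 FPKM at 40 °C (SD, n = 3 each), with a midpoint test of 2.03 ± 0.26 (limma adjusted p = 1.56e-06). Its 37 °C replicates were far apart, yet the lowest was above all 6 libraries at 40 and 34 °C. Fos followed at 35.2, 24.7 and 11.6 FPKM at 37 °C (1.45, adjusted p = 0.00653), but lost its call without 37 °C replicate 1 or 2, up to an adjusted p of 0.241. Atf3 had the reverse pattern, with 5.46, 7.65 and 7.12 FPKM at 34 °C, 2.00, 1.91 and 2.28 FPKM at 37 °C and 6.40, 4.26 and 3.85 FPKM at 40 °C (-1.12, adjusted p = 6.44e-05). Ddit3 (-1.13) and Chac1 (-1.02), a glutathione-degrading enzyme, were low at 37 °C as well. Of the 56 genes, 28 had a 37 °C mean below both others and 13 one above both.

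**Figure D4:**
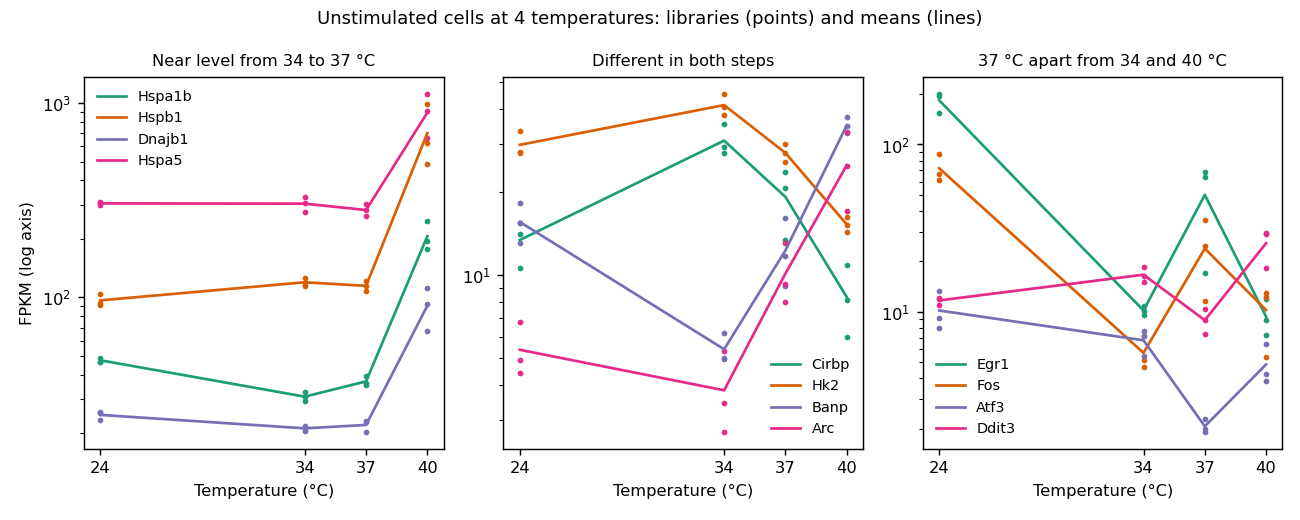
FPKM (log axis) of 12 genes in unstimulated cells at 24, 34, 37 and 40 °C, with points for the 3 libraries of each temperature and lines through the means. The left panel holds genes with a small step from 34 to 37 °C beside that from 37 to 40 °C. Among them Hspa1b differs by 0.25 ± 0.12 (log2, SE) in the lower step and by 2.44 in the upper. The middle panel holds genes that differ in both steps, and the right one genes whose 37 °C level stands apart. Hspb1 is at 115 FPKM at 37 °C and 701 FPKM at 40 °C.

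The same temperatures were compared in cells that had also received a cytokine, in other libraries. After 1 h of TNF-α 1432 genes (14.1%) were called between 40 and 34 °C, 6.61% of all genes higher and 7.54% lower. IL-1β for 1 h gave 1127 (11.1%), with 5.34% higher and 5.79% lower. At 3 h, TNF-α gave 2373 (23.4%; 13.6% higher and 9.86% lower) and IL-1β 1935 (19.1%; 10.4% higher and 8.74% lower). Which direction held more calls turned over with rescaled libraries. At 1 h these gave 764 higher and 700 lower genes for TNF-α and 599 and 548 for IL-1β, and at 3 h 1171 and 1212 for TNF-α and 953 and 1021 for IL-1β. With the spread of their own 6 libraries alone, the 1 h counts were 249 for TNF-α and 500 for IL-1β, and IL-1β at 1 h gave 688 without 40 °C IL-1β replicate 3. Of the 506 genes higher in unstimulated cells, 299 were also higher with TNF-α at 1 h (59.1% of the unstimulated list and 44.7% of the TNF-α list) and 359 at 3 h (70.9% and 26.1%). With IL-1β, 295 (58.3% and 54.5%) and 328 (64.8% and 31.2%) were. Of the 476 lower genes, 267 (56.1% and 35.0%) and 235 (49.4% and 23.5%) were also lower with TNF-α at 1 and 3 h, and 264 (55.5% and 45.1%) and 262 (55.0% and 29.6%) with IL-1β. Calls in the opposite direction numbered 3 to 11 in each of these comparisons. In all 5 conditions, 195 genes were higher and 139 lower at 40 °C.

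Hspb1, Hsph1, Hsp90aa1, Fkbp4, Hspa5 and Banp kept a large difference in all 5 conditions. The test of a change at 3 h was not passed by any of these 6 (limma adjusted p 0.67 or above). They were picked with their 5 differences known, so that result was largely set by the choice. Hspa1b (-1.60, adjusted p = 7.05e-10) and Znfx1 (-0.69, adjusted p = 0.0079), also called higher in all 5 conditions, passed the test. The difference of Hspb1 was 2.48 in unstimulated cells, 2.54 and 2.56 after 1 h of TNF-α and IL-1β, and 2.64 and 2.81 after 3 h. That of Hsp90aa1 ran from 1.15 to 1.25 and that of Hspa5 from 1.51 to 1.93. Cirbp differed by -1.79 in unstimulated cells and by -2.67 and -2.51 at 3 h, where it averaged 4.14 ± 1.92 FPKM at 40 °C and 30.4 ± 3.89 FPKM at 34 °C with TNF-α (n = 3 each). The test of its difference between 3 h and unstimulated cells missed the threshold (-0.80, limma adjusted p = 0.13), while Rbm3 passed it (-0.69, adjusted p = 0.00187). Genes chosen after their values were seen, as those with the largest smallest difference over the 5 conditions, include Slc5a3, the myo-inositol transporter that guards against osmotic stress (1.14 to 1.20), Rsrp1 (1.09 to 1.25) and the phosphodiesterase Pde3a (-1.10 to -1.43).

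The difference between 40 and 34 °C at 3 h, averaged over the cytokines, was set against that in unstimulated cells. This test called 258 genes (2.55%), 153 positive and 105 negative, which are 1.51% and 1.04%. With rescaled libraries it called 117 positive and 154 negative, so the balance of signs depends on the scaling. Leaving out replicate 1 of unstimulated cells at 40 °C gave 170 calls, and leaving out that at 34 °C gave 156. The hours at temperature and the cytokine cannot be told apart here, since the unstimulated cells were lysed after 2 h. Several of the early heat shock genes had a smaller difference at 3 h. Hspa1b differed by 2.69 in unstimulated cells, 2.04 and 2.05 after 1 h of TNF-α and IL-1β, and 1.12 and 1.06 after 3 h (test of the change -1.60 ± 0.15, limma adjusted p = 7.05e-10). Hspa1b averaged 207 ± 36.5 FPKM at 40 °C in unstimulated cells and 79.1 ± 13.5 FPKM after 3 h of TNF-α, against 30.9 ± 1.82 and 35.6 ± 2.10 FPKM at 34 °C (n = 3 each). Dnajb4 (-1.32), Dnaja4 (-0.99), Dnajb1 (-0.90), Bag3 (-0.80) and Hspb8 (-0.72) changed in the same direction, and at 3 h of TNF-α and IL-1β the difference of Dnajb4 was -0.03 and 0.02 and that of Hspb8 -0.09 and -0.04.

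The difference of Herpud1 changed sign. It was 1.48 in unstimulated cells, 0.89 and 0.91 at 1 h, and -0.93 and -0.86 at 3 h (test of the change -2.38 ± 0.25, limma adjusted p = 1.22e-08). Herpud1 averaged 47.7 ± 3.43 FPKM at 40 °C and 91.4 ± 4.94 FPKM at 34 °C after 3 h of TNF-α (n = 3 each), while Hspa5 in the same libraries stayed higher at 40 °C (1.51). Ddit3 (-1.76, adjusted p = 1.98e-06) and Gdf15 (-1.66, adjusted p = 8.01e-08) changed likewise. Gdf15 was lower at 40 °C at 1 h, by 0.88 (TNF-α) and 0.64 (IL-1β), but was not called at 3 h. In the other direction, Lrig1, a receptor inhibitor, and C3, the central complement component, were not called in unstimulated cells and were higher at 40 °C at 3 h. C3 averaged 63.1 ± 7.49 FPKM at 40 °C and 26.4 ± 0.826 FPKM at 34 °C with TNF-α (test of the change 1.24, adjusted p = 0.00335).

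**Figure D5:**
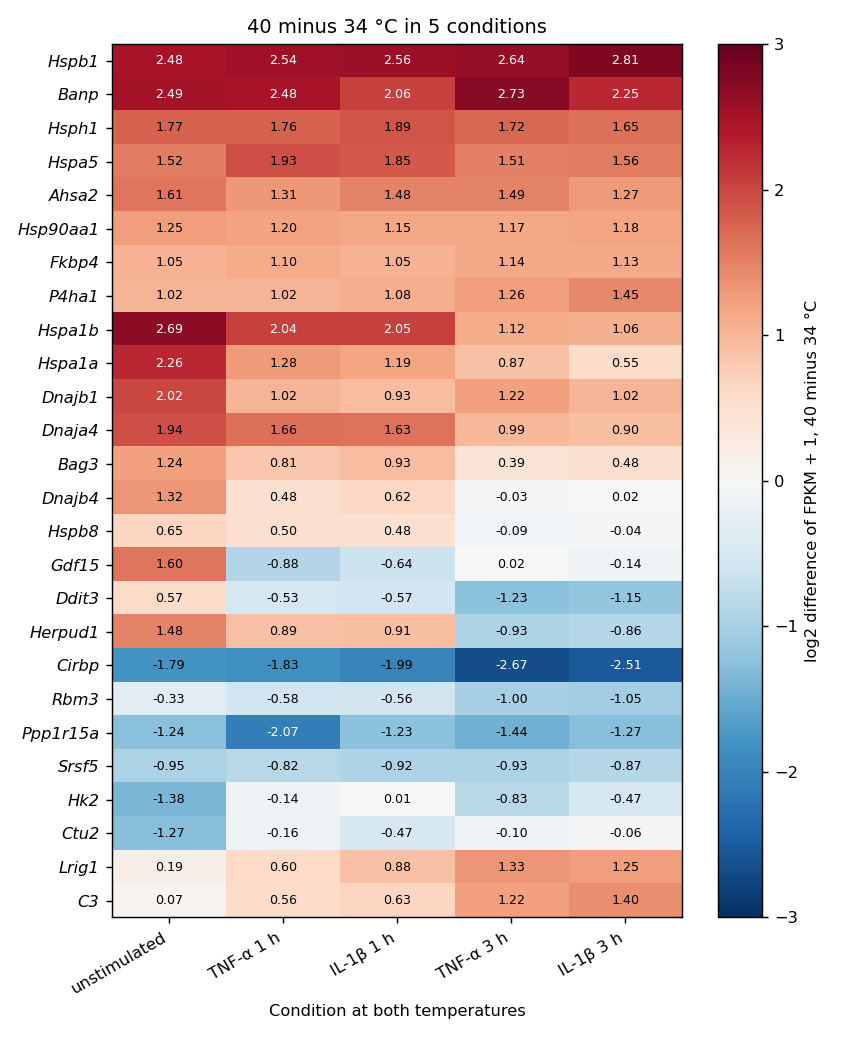
Log2 difference, 40 minus 34 °C, of 26 named genes in unstimulated cells and after 1 or 3 h of TNF-α or IL-1β at both temperatures, with the value in each cell and red for higher at 40 °C. Hspb1 stays between 2.48 and 2.81, Hspa1b is 2.69 in unstimulated cells and 1.06 with IL-1β at 3 h, and Herpud1 is 1.48 and -0.86 in the same columns.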

How the data were processed

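The authors deposited 1 table of FPKM, with 10122 genes in 60 libraries. Per the submitters' processing notes, the tools were STAR (2.7.11b), RSEM (1.3.3) and edgeR and the build GRCm39, without the role of each. The gene identifiers match GENCODE M21. Every gene in the table reaches 1 FPKM in at least 4 libraries, and genes outside the table were not analysed here. FPKM are not counts. A linear model with 1 mean for each of 20 groups (40 residual degrees of freedom) was therefore fitted to log2(FPKM + 1) with limma version 3.58.1 under R version 4.3.3, using a mean-variance trend. Tests were two-sided, adjusted over all genes (Benjamini-Hochberg) and called below 0.05. The pseudocount understates differences of low genes. The code was tested on simulated data.

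Mapped fragments were estimated from the FPKM steps of 482 genes, at 3.54 to 7.70 M per library over all 60. Named genes are the 15 largest rises and falls among called genes with libraries that do not overlap (3 of these are unnamed gene models), up to 6 called members of each of 35 lists, a fixed list, and the 6 largest of each sign in the midpoint and 3 h tests. Hsp90ab1, Ptges3, Dnajb6, Calr, Canx, Sox9, Col1a1 and mt-Nd4l fall outside this rule and were named after their values were seen. The members and lists were chosen with earlier results of these data known. The alternatives were leaving out 1 library, a pseudocount of 0.1, a mean of at least 5 FPKM, rescaled libraries, a replicate block, a robust prior, leaving out the 24 °C libraries, and the libraries of a comparison alone. Promoter sequences are from RefSeq (GRCm38.p6). Coordinates are given only for the promoter stretches, since the notes and the identifiers name different builds.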

Additional observations from a re-analysis of the deposited data

Results flagged for a closer look

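The difference between 40 and 34 °C itself differed between cells at 3 h of cytokine and unstimulated cells for 258 genes, and the 6 largest of each sign are these (limma, difference at 3 h minus difference in unstimulated cells, log2). The negative ones were Herpud1 (-2.38), Ddit3 (-1.76), Gdf15 (-1.66), Hspa1b (-1.60), Hspa1a (-1.55) and Rpp40 (-1.45). The positive ones were Rpp38 (1.42), C3 (1.24), Ctu2 (1.19), Lrig1 (1.11), Atat1 (1.08) and Rmnd1 (1.06). Without each of the 18 libraries in turn, Herpud1, Ddit3, Gdf15, Hspa1b, Hspa1a, Rpp38, C3 and Lrig1 kept their call. Rpp40, a subunit of ribonuclease P, lost it in 12 of the 18 fits (adjusted p up to 0.159), Rmnd1 in 5 (0.135) and Ctu2 in 3 (0.123). Atat1 lost it without 40 °C unstimulated replicate 1 (0.06). Ctu2 averaged 9.58 ± 0.43 FPKM at 40 °C and 24.9 ± 5.50 FPKM at 34 °C in unstimulated cells, and 15.7 ± 2.89 and 17.0 ± 4.02 FPKM after 3 h of TNF-α (n = 3 each). Longer time at the temperature and the cytokine cannot be told apart in these tests.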

How the results depend on the processing

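With the spread taken from the libraries of a comparison alone, the calls between 40 and 34 °C numbered 290 in unstimulated cells, 249 with TNF-α at 1 h and 500 with IL-1β at 1 h, and the midpoint test at 37 °C called 1 gene. The counts under each other setting stayed within 1.5 times of those reported, apart from fits without 1 library. Those gave 657 to 827 calls in unstimulated cells, 1026 to 1504 (TNF-α, 1 h), 1843 to 1954 (TNF-α, 3 h), 688 to 1031 (IL-1β, 1 h), 1448 to 1611 (IL-1β, 3 h), 37 to 64 (midpoint) and 156 to 266 (3 h against unstimulated). The 688 came without 40 °C IL-1β 1 h replicate 3. The replicate block gave 1117 calls in unstimulated cells, 1712 and 2634 with TNF-α, 1345 and 2209 with IL-1β, 74 for the midpoint and 384 for 3 h against unstimulated. In the groups compared, same-numbered libraries had deviations with r of -0.07 to 0.132. Between unstimulated cells at 40 and 34 °C all 3 were below 0 (-0.0695 to -0.0181). With TNF-α at 1 h they had mixed signs (-0.0166 to 0.0513), and in every other pair of groups compared all 3 were above 0. No pair of groups had all 3 above 0.1, a limit set by choice, and the main fit did not pair same-numbered libraries. The block raised the count in every comparison, and whether same-numbered libraries share an effect was not tested. Of 112 called named genes, 0 changed sign, 53 kept their call under every alternative and 53 lost it with the 6 libraries alone. Of the named genes that were not called, 6 changed sign. Rmnd1 was 0.0062 with rescaled libraries. Without 1 library, Egr1 ran from -0.31 to 0.015, Relb from -0.32 to 0.052 (0.0077 without 40 °C replicate 1), Ccl2 from -0.49 to 0.019, Pianp from -0.030 to 0.23, Rmnd1 from -0.10 to 0.18 and C3 from -0.061 to 0.26. Rescaling moved the difference of all genes by -0.014 in unstimulated cells, by -0.0284 to 0.0409 with a cytokine and by 0.0475 in the test of 3 h against unstimulated. At the estimated depth, values of a few FPKM rest on few fragments. The cause of these changes was not tested.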
